A study of Homo sapiens with 4 samples.

Results

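A set of 41 DNA repair and checkpoint genes was followed in GBM (glioblastoma) cells treated with Bru (brusatol, a quassinoid from a plant used in Chinese medicine). The set was given as a list of gene names, and all 41 names were found once among the 58735 genes of the deposited tables. It holds 12 genes of homologous recombination, 10 Fanconi genes, 9 genes of the checkpoint and of DNA end resection, 2 of mismatch repair, 3 of single-strand break repair and 5 of end joining. RNA was measured in 4 groups, which were U251 without Bru (U251 Control), U251 with Bru (U251 Bru), U87 without Bru (U87 Control) and U87 with Bru (U87 Bru). U251 and U87 are established human GBM cell lines, and Bru, dissolved in DMSO, was given for 48 h. For the sequenced cells, the study gives the dose only as a half-inhibitory concentration, and the labels do not say what the Control cells received. The viability time course of the study used more Bru for U251 than for U87, and the lines may have had different doses here. Each group had 1 library, so no difference below has a replicate check.

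Homologous recombination copies the sister chromatid to mend a double-strand break, while end joining ligates the broken ends directly. The Fanconi proteins unhook DNA crosslinks together with recombination proteins, mismatch repair corrects replication errors, and single-strand break repair seals nicks. The kinases ATM and ATR sense damage and pass the signal to CHEK2 and CHEK1, which hold the cell cycle. Recombination works mainly in S and G2 phase, and many of its genes are transcribed most strongly then, under E2F factors, whereas end joining acts throughout the cycle.

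The promoters of the genes that bear on the results are shown first. RefSeq windows (GRCh38.p14) around the transcription start were matched for 36 of the 41 genes, and FANCI, RAD54B, NBN, XRCC5 and PRKDC had no entry. The 6 genes shown first below were at least 1.5-fold lower in U251 Bru, and FANCF and, of end joining, LIG4 and XRCC6 were higher. The genes shown were picked by hand, and RAD51D, PARP1 and RBBP8, also at least 1.5-fold lower, are not shown. Each line gives 120 bases before the start and the first 30 bases of the transcript, 5′ to 3′, and capitals mark an E2F core, searched on either strand as GCGNNAA with the middle pair GG, CC, CG or GC. The last 30 bases of the RefSeq window were found in a GENCODE 29 transcript of the gene for 33 of the 36, and FANCD2 was not among these, so its start was not checked in this way.
BRIP1: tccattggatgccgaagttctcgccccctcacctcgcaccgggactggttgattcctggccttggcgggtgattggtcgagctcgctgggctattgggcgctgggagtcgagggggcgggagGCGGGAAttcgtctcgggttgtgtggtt
FANCA: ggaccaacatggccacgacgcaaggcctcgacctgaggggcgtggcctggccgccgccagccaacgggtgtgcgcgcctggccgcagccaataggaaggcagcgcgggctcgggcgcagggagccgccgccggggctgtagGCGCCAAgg
FANCD2: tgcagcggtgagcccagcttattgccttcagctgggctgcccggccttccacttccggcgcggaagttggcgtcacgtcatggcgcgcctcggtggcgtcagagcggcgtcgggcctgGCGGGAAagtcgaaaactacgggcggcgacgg
BLM: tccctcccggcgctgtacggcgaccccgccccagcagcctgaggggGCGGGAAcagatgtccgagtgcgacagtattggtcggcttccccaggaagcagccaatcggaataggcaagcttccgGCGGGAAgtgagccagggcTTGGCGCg
BARD1: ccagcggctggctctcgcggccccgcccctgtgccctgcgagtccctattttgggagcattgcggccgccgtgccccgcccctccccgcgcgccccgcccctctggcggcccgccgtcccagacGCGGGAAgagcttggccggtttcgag
EXO1: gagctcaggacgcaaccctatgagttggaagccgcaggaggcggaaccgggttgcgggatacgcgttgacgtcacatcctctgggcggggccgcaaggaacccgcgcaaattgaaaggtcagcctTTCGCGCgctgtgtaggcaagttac
FANCF: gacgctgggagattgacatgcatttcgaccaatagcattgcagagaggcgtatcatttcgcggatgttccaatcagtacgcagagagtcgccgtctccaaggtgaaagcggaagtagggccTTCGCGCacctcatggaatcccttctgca
LIG4: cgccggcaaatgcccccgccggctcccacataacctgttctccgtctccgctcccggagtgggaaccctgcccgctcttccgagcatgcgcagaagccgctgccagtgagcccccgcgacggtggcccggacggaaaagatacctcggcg
XRCC6: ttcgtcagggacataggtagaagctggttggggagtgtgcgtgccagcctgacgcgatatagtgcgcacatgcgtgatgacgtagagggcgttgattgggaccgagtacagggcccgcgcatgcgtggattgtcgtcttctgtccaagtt
On the minus strand, the windows lie at chr17:61863499-61863648 (BRIP1), chr16:89816618-89816767 (FANCA), chr2:214809654-214809803 (BARD1), chr11:22625794-22625943 (FANCF) and chr13:108218320-108218469 (LIG4). On the plus strand, they lie at chr3:10026317-10026466 (FANCD2), chr15:90717226-90717375 (BLM), chr1:241848084-241848233 (EXO1) and chr22:41621175-41621324 (XRCC6). With the first base of the transcript counted as 1, the core began at base 3 in BRIP1, at 22 in FANCA, at -2 in FANCD2, at 5 in BARD1 and at 6 in EXO1. The core of FANCF, a gene that was higher in U251 Bru, began at base 2, and PMS2, also higher and not shown, had one at -42. BLM held 3 cores, which began at -74, 4 and 23. The printed stretch of LIG4 held none, and that of XRCC6 held none, although its full window held 1.

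Over the full window of 300 bases (250 before and 50 after the start), an E2F core was found in 20 of the 36 promoters, or 55.6%, beside 13.1% of the 27305 promoters listed and 21.5% of the 8979 promoters of genes past the expression filter given below. The share differed by role. It was 8 of 9 Fanconi promoters, 6 of 11 of homologous recombination, 1 of 8 of the checkpoint and resection genes, 2 of 2 of mismatch repair, 2 of 3 of single-strand break repair and 1 of 3 of end joining. Among the genes at least 1.5-fold lower in U251 Bru it was 8 of 9, against 12 of the 27 others. RBBP8 was the gene of these 9 without a core. The CHR element (TTTGAA on either strand), which marks many mitotic promoters, was found in 4 of the 36, or 11.1%, beside 15.4% of all promoters and 9.48% of those of genes past the filter. The median GC content was 64.8% in the 36 promoters and 58.3% in all. The shares above rest on the first window listed for each gene. Over all listed windows, an E2F core was found in 21 of the 36 genes (58.3%), beside 15.3% of the 27305 genes. BRCA1, counted above as without a core, had a start that, like that of FANCD2, was not checked against a transcript. These matches describe letters only.

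The files give FPKM, which divides the fragment count of each gene by its length and by a library size. FPKM times length was a whole multiple of 1 step for 100% of values, which gave back the reads of each gene, 17083896 to 21453561 per library. In a gene of 1 kb, 3 reads correspond to 0.143 to 0.172 FPKM. Glial and mesenchymal markers were checked against the labels. VIM lay between 606 and 701 FPKM and CD44 between 94.5 and 125 FPKM in the 4 libraries. SOX2 had 129 FPKM in U251 Control and 91.2 FPKM in U251 Bru, but U87 held 0 reads of it as Control and 2 after Bru. NES, FABP7 and GFAP were also far lower in U87 than in U251, OLIG2 did not exceed 1.05 FPKM and S100B had no read in 3 libraries. Among 6 markers of leukocytes, macrophages, endothelium, epithelium and oligodendrocytes, KRT18 reached 14.3 FPKM in U251 Bru, MOG had no read, and the others stayed under 0.506 FPKM. With Bru, FABP7 and NES had log2 ratios of -1.97 and -1.303 in U251, where KRT18 was at 0.56. GFAP was at -1.09 there but did not pass the expression filter. In U87, NES was at -1.23, and KRT18, with 35 and 20 reads, had a counting interval that held 0. The part of these markers in the results was not tested.

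In U251, the repair genes were lower after Bru on balance, and the shift was uneven over the roles. BRIP1, FANCA, FANCI, BLM and BARD1, which serve crosslink repair and recombination, were 1.75-fold to 2.09-fold lower. All 5 end joining genes were higher by at most 1.26-fold, and of these XRCC4 lay within counting error. Of the 12949 genes past the filter, 6110 had a U251 ratio above 0. FANCF was the exception among the Fanconi genes and was 2.07-fold higher. In U87, no gene of the set reached 1.5-fold in either direction. RNA from a culture cannot tell fewer cells in a phase of the cycle from less RNA per cell.

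Ratios are log2 of Bru over Control on FPKM + 0.1, for the 12949 genes with a mean of at least 1 FPKM over the 4 libraries. Of the 41 genes, 39 passed, and RAD50 and RAD54B did not. In U251, 1 of the 39 was at least 2-fold lower (5.44% of all genes were) and 1 was at least 2-fold higher (3.36% of all genes). At least 1.5-fold, 10 were lower (15.6% of all genes) and 1 was higher (11.3% of all genes). The median of the 39 was -0.30 against -0.03 over all genes, and 28 had a ratio below 0 (52.1% of all genes). The interval of counting error, an exact Clopper-Pearson interval of the reads at 95% without the added 0.1, lay below a ratio of 1 for 25 of the 39 (35.9% of all genes) and above it for 9 (30.9%). The 10 genes 1.5-fold lower depended on the scale, and with libraries scaled by total reads it was 5 of the 39, beside 12.7% of all genes at that scale.

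In U87, the median of the 39 was -0.06 against -0.04 over all genes. None was at least 2-fold lower (1.41% of all genes) or higher (1.92%), and none was at least 1.5-fold lower (4.49%) or higher (4.56%). The ratios ran from -0.39 in BLM to 0.37 in FANCF, and 25 of the 39 were below 0 (56.7% of all genes). Counting intervals lay below a ratio of 1 for 13 (28% of all genes) and above it for 5 (15.7%).

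**Figure D1:**
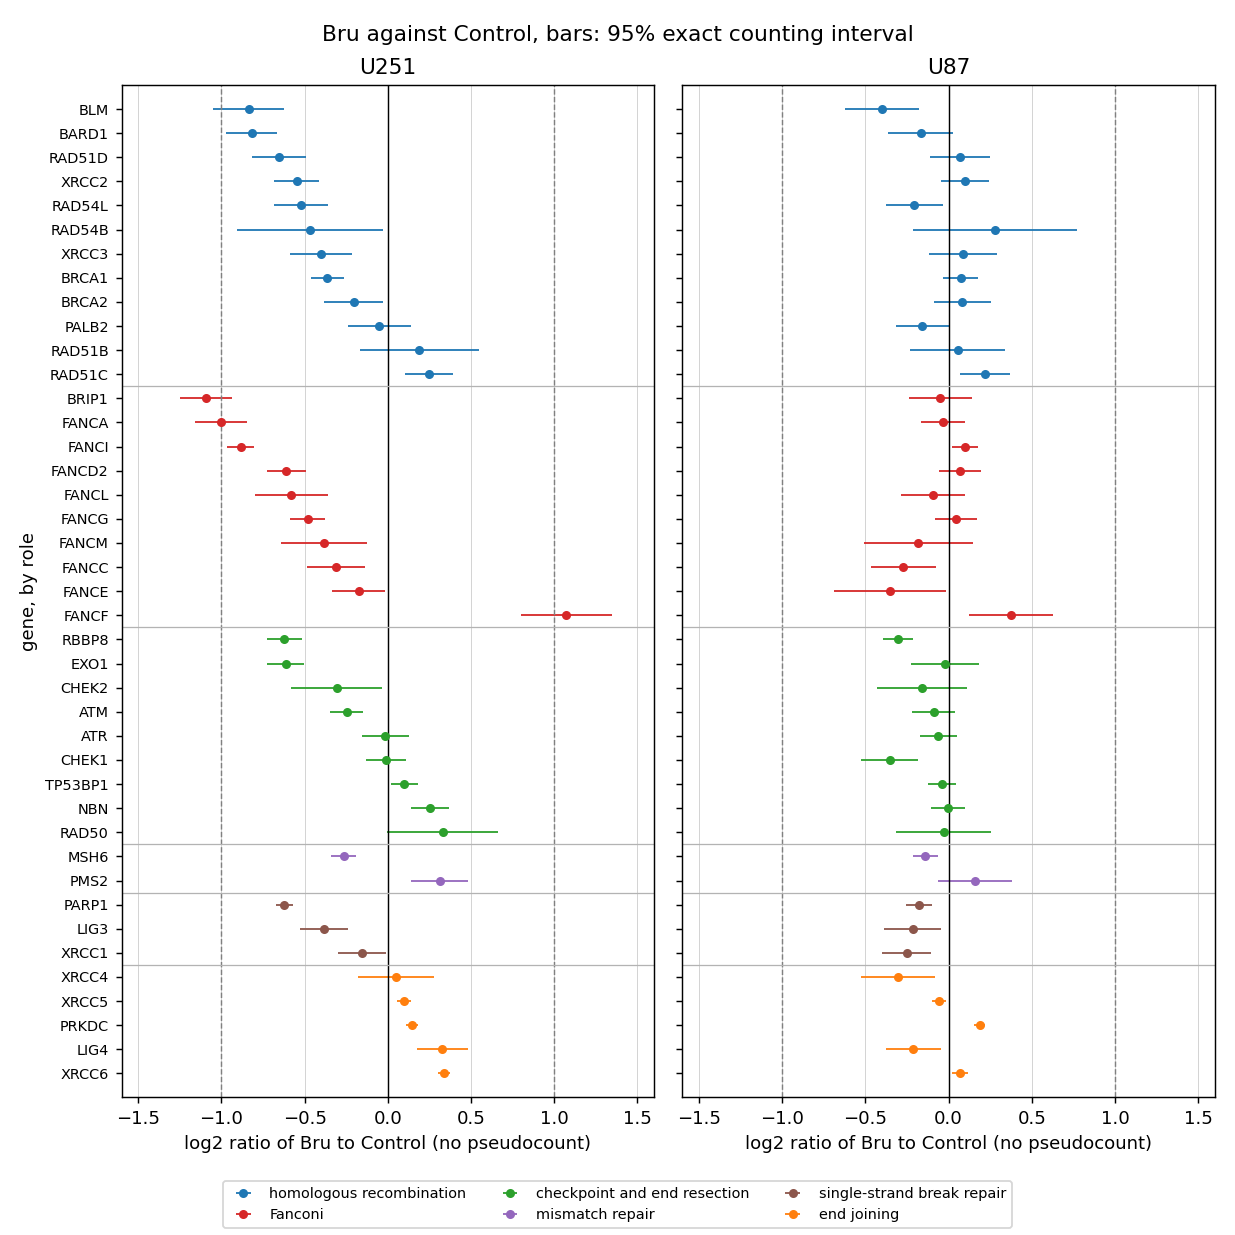
Log2 ratio of Bru to Control without a pseudocount for the 41 genes, ordered by role, in U251 (left) and U87 (right), with 1 library per condition. Bars are exact intervals at 95% that cover counting error only, and dashed lines mark 2-fold. In U251 most recombination and Fanconi genes lie left of 0 and end joining genes right of it, and in U87 the points gather around 0.

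Homologous recombination genes had a U251 median of -0.39, and 9 of the 11 that passed were below 0 (52.1% of all genes). Their U87 median was 0.07, within -0.04 to 0.12 over the settings tried, so that its sign was not fixed. BLM, the Bloom syndrome helicase that dissolves crossed-over DNA, had 3.94 FPKM in U251 Control, 2.21 FPKM in U251 Bru, 3.28 FPKM in U87 Control and 2.49 FPKM in U87 Bru. It was lower with Bru in both lines, by -0.81 (interval -1.05 to -0.62) in U251 and by -0.39 (-0.62 to -0.18) in U87. BARD1, the partner that forms a ubiquitin ligase with BRCA1, went from 8.24 to 4.68 FPKM in U251 and from 4.24 to 3.78 FPKM in U87, a log2 ratio of -0.80 (-0.97 to -0.66) and -0.16 (-0.36 to 0.03). The U251 Bru library thus came close to the U87 libraries for this gene. BRCA1 itself, which directs resected ends into recombination, changed less, from 10.5 to 8.13 FPKM in U251 (-0.36, interval -0.46 to -0.26) and from 8.98 to 9.45 FPKM in U87 (0.07, interval -0.03 to 0.18).

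BRCA2, which loads the recombinase filament, had 2.35, 2.04, 2.44 and 2.59 FPKM in U251 Control, U251 Bru, U87 Control and U87 Bru. PALB2, which links BRCA1 to BRCA2, had 5.07, 4.90, 8.04 and 7.21 FPKM in the same order. Their U251 log2 ratios were -0.20 (-0.38 to -0.03) and -0.05 (-0.24 to 0.14), so that the bridging protein gene lay within counting error. The paralogs that stabilise the filament did not move together. RAD51D had 3.64, 2.31, 2.51 and 2.63 FPKM and XRCC2 had 11.96, 8.18, 9.08 and 9.72 FPKM, with U251 ratios of -0.63 (-0.82 to -0.49) and -0.54 (-0.68 to -0.41). RAD51C, with 6.25, 7.42, 6.28 and 7.31 FPKM, was higher with Bru in both lines, by 0.24 (0.11 to 0.39) in U251 and 0.22 (0.07 to 0.37) in U87. XRCC3, the partner of RAD51C, was at -0.39 (-0.59 to -0.21) in U251 and 0.08 (-0.12 to 0.29) in U87. RAD51B was low, at 0.84 to 1.58 FPKM, and its Bru ratios of 0.17 and 0.05 had intervals that held 0. RAD54L, a motor that drives strand exchange, had ratios of -0.52 (-0.69 to -0.36) in U251 and -0.20 (-0.38 to -0.04) in U87. Its relative RAD54B had 66 to 114 reads per library and did not pass the filter.

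Fanconi genes gave the lowest median of the larger roles in U251, -0.52. Of these 10 genes, 9 were below 0 (52.1% of all genes) and 4 were at least 1.5-fold lower (15.6% of all genes). In U87 the median was -0.04, within -0.05 to 0.04 over the settings tried. BRIP1 (ENSG00000136492), the helicase that binds BRCA1, is a minus-strand gene of chromosome 17 (61681266 to 61863521, GRCh38). It had 6.90 FPKM in U251 Control, 3.24 FPKM in U251 Bru, 3.32 FPKM in U87 Control and 3.21 FPKM in U87 Bru. Only the U251 Control library stood high, and the other 3 lay close together. Its ratio was -1.07 (-1.25 to -0.93) in U251 and -0.05 (-0.24 to 0.14) in U87.

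FANCA, a large subunit of the Fanconi core ubiquitin ligase, had 5.49, 2.74, 5.51 and 5.38 FPKM in the order used above. Here only U251 Bru stood apart, at a ratio of -0.98 (-1.16 to -0.85), and the U87 ratio was -0.03 (-0.17 to 0.10). FANCI and FANCD2 form the clamp that the core complex ubiquitinates at a crosslink. FANCI had 23.9, 12.97, 19.0 and 20.4 FPKM and FANCD2 had 9.44, 6.19, 6.70 and 7.02 FPKM. Both were lower in U251 Bru, by -0.88 (-0.96 to -0.80) and -0.60 (-0.73 to -0.49), and neither was lower in U87 Bru, where the ratios were 0.10 (0.02 to 0.18) and 0.07 (-0.06 to 0.19). FANCL, the catalytic subunit of the ligase, and FANCG, an adaptor of the core, had U251 ratios of -0.57 (-0.80 to -0.36) and -0.48 (-0.58 to -0.38). FANCM, a translocase that anchors the core to DNA, FANCC and FANCE had smaller U251 ratios of -0.36, -0.30 and -0.17. FANCE was 3.62 FPKM in U87 Control and 2.84 FPKM in U87 Bru, with 176 and 133 reads, and FANCC was lower there too, at -0.26 (-0.47 to -0.08).

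FANCF (ENSG00000183161), a scaffold of the core complex, went the other way. It is a minus-strand gene of chromosome 11 (22622890 to 22625841, GRCh38). The level was 2.79 FPKM in U251 Control, 5.89 FPKM in U251 Bru, 4.46 FPKM in U87 Control and 5.78 FPKM in U87 Bru, from 173, 322, 238 and 297 reads. U251 Control was thus the low library, and the Bru libraries lay close together. The ratio was 1.05 (0.80 to 1.35) in U251 and 0.37 (0.12 to 0.63) in U87. Of its exonic bases, 11.3% overlap GAS2 on the other strand.

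Checkpoint and resection genes were split. The median of the 8 that passed was -0.13 in U251 and -0.07 in U87. RBBP8 and EXO1 had the lowest U251 ratios of the role. RBBP8, which encodes CtIP and starts resection, had 19.2, 12.5, 25.6 and 20.7 FPKM and was lower with Bru in both lines, by -0.62 (-0.73 to -0.52) and -0.30 (-0.39 to -0.22). EXO1, the nuclease that extends resection, had 20.1, 13.1, 5.44 and 5.36 FPKM. Its ratio was -0.61 (-0.73 to -0.50) in U251 and -0.02 (-0.23 to 0.18) in U87, where the gene was low in both libraries.

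Of the kinases, ATM had 3.89, 3.28, 2.36 and 2.22 FPKM and ATR had 3.35, 3.32, 6.06 and 5.81 FPKM. The lines differed more than the treatment did for both. The U251 ratio of ATM was -0.24 (-0.34 to -0.15). CHEK1 had 9.09, 9.03, 5.61 and 4.39 FPKM, which is a ratio of -0.01 (-0.13 to 0.11) in U251 and -0.35 (-0.52 to -0.19) in U87. It was thus within counting error in U251 and lower in U87 Bru. The U251 ratios of ATR and CHEK1 were at -0.01 and turned positive under every other scaling. CHEK2 had ratios of -0.30 (-0.58 to -0.03) and -0.15 (-0.43 to 0.11). NBN, a subunit of the complex that tethers broken ends and activates ATM, was at 0.25 (0.14 to 0.37) in U251 and -0.00 (-0.10 to 0.10) in U87. TP53BP1, which shields ends from resection and favours end joining, was at 0.10 (0.02 to 0.18) and -0.04 (-0.13 to 0.04). RAD50, the partner of NBN, had 144 to 213 reads and did not pass the filter.

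The mismatch repair genes moved apart in U251. MSH6, which recognises base mispairs, had 15.5, 12.9, 15.3 and 13.8 FPKM and was lower with Bru in both lines, by -0.26 (-0.34 to -0.19) and -0.14 (-0.22 to -0.06). PMS2, whose product nicks the strand to be corrected, had 6.61, 8.21, 4.51 and 5.04 FPKM, with ratios of 0.31 (0.14 to 0.48) and 0.15 (-0.07 to 0.38). The single-strand break genes were lower with Bru in both lines. PARP1, the enzyme that detects nicks and marks them with poly(ADP-ribose), had 56.9, 37.0, 22.1 and 19.5 FPKM, with ratios of -0.62 (-0.67 to -0.57) and -0.18 (-0.26 to -0.10). LIG3, the ligase, was at -0.37 (-0.52 to -0.24) and -0.21 (-0.39 to -0.04), and XRCC1, its scaffold, was at -0.15 (-0.30 to -0.01) and -0.25 (-0.40 to -0.11).

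End joining genes were the only role whose genes were all higher in U251 Bru, under each scaling tried. The median was 0.15 in U251 and -0.06 in U87, and none reached 1.5-fold. XRCC6, which encodes Ku70 of the ring that caps broken ends, had 159, 202, 110 and 115 FPKM, with ratios of 0.34 (0.30 to 0.38) and 0.07 (0.02 to 0.12). XRCC5, which encodes its partner Ku80, was steadier, at 85.6, 91.7, 90.6 and 87.03 FPKM, with ratios of 0.10 (0.06 to 0.14) and -0.06 (-0.10 to -0.02). PRKDC, the kinase that Ku recruits, had 44.1, 48.8, 45.6 and 51.9 FPKM and was higher with Bru in both lines, by 0.15 (0.11 to 0.18) and 0.19 (0.15 to 0.22). LIG4, the ligase of the pathway, had 7.30, 9.16, 8.44 and 7.28 FPKM, so that it was higher in U251 Bru (0.32, interval 0.17 to 0.48) and lower in U87 Bru (-0.21, interval -0.38 to -0.05). XRCC4, which holds LIG4, had 5.99, 6.19, 7.88 and 6.38 FPKM, with ratios of 0.05 (-0.18 to 0.28) and -0.30 (-0.53 to -0.08).

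The response of the lines was compared by the difference itself, the U251 log2 ratio minus the U87 log2 ratio, with an exact conditional interval of the 4 read counts. Since the lines may have had different doses of Bru, line and dose cannot be told apart in these differences. The median difference was -0.15 over the 39 genes and 0.01 over all genes. By role it was -0.50 for Fanconi genes, -0.42 for homologous recombination, -0.05 for the checkpoint genes and 0.27 for end joining. The lowest values were those of BRIP1, at -1.02 (-1.29 to -0.79), FANCI, at -0.98 (-1.09 to -0.87), and FANCA, at -0.94 (-1.17 to -0.76). RAD51D, FANCD2, XRCC2, BARD1 and EXO1 followed, between -0.70 and -0.59. The highest were FANCF, at 0.68 (0.33 to 1.08), and LIG4, at 0.53 (0.31 to 0.77), followed by XRCC4 at 0.35 (0.03 to 0.67) and CHEK1 at 0.34 (0.14 to 0.55). For RAD51C, PRKDC, ATR and FANCC the difference was between -0.04 and 0.05 and its interval held 0. Of the 39 genes, 20 were below 0 in both lines, 6 above 0 in both, 8 lower in U251 and higher in U87, and 5 the other way round. Over all genes, 52.1% were below 0 in U251 and 56.7% in U87, and the share below 0 in both lines was not computed. Across the 39 genes the ratios of the lines had a Spearman rho of 0.18 and a Pearson r of 0.32, given as a description, and the 12949 genes had a rho of 0.40.

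**Figure D2:**
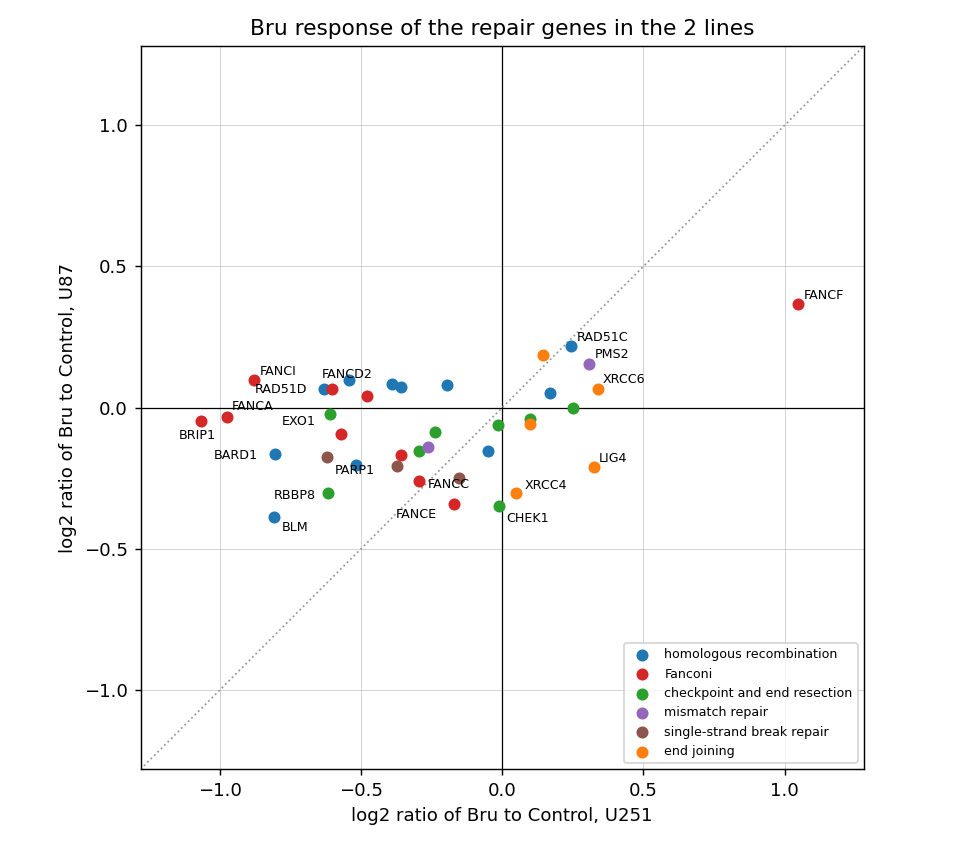
Log2 ratio of Bru to Control (FPKM + 0.1) of the 39 genes past the filter in U251 (horizontal) and U87 (vertical), 1 point per gene, coloured by role. The dotted line marks equal ratios. The points spread from -1.07 to 1.05 along the U251 axis and from -0.39 to 0.37 along the U87 axis.

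The Control libraries of the lines differed more from each other in several of these genes than Bru and Control did. In U87 Control against U251 Control, 4 of the 39 genes were at least 2-fold lower (16% of all genes) and none was at least 2-fold higher (14.5%). At least 1.5-fold, 9 were lower (26.8% of all genes) and 5 higher (25%). The median was -0.19 against -0.01 over all genes. EXO1 was at -1.87 (-2.04 to -1.73), FANCE at -1.81 (-2.08 to -1.598), PARP1 at -1.36 (-1.43 to -1.31) and BRIP1 at -1.03 (-1.21 to -0.90). The 5 higher in U87 were ATR at 0.84 (0.73 to 0.98), RAD51B at 0.79 (0.53 to 1.18), FANCF at 0.66 (0.39 to 0.97), PALB2 at 0.65 (0.50 to 0.83) and NBN at 0.59 (0.49 to 0.71). FANCA, RAD51C, MSH6, BRCA2, CHEK2 and TP53BP1 had intervals that held 0, so that no difference was detectable at this depth.

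**Figure D3:**
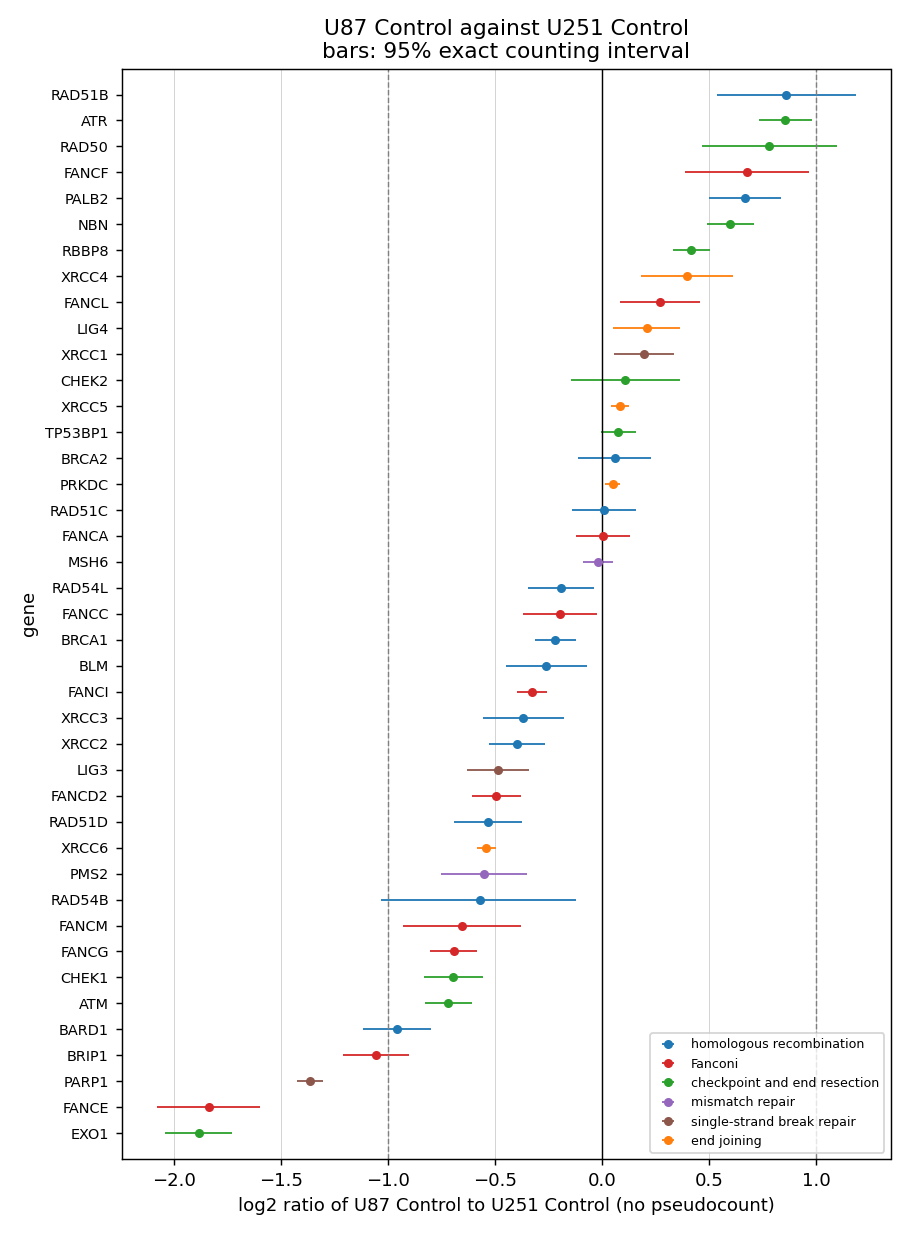
Log2 ratio of U87 Control to U251 Control without a pseudocount for the 41 genes, ordered by value and coloured by role. Bars are exact intervals at 95% that cover counting error only, and dashed lines mark 2-fold. EXO1, FANCE, PARP1 and BRIP1 lie beyond 2-fold on the low side and no gene does on the high side.

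On the per-length scale of FPKM, the Ku and PRKDC genes of end joining were the most abundant of the set in every library except that PARP1 exceeded PRKDC in U251 Control. XRCC6 had 110 to 202 FPKM and XRCC5 had 85.6 to 91.7 FPKM. At the other end, RAD50, RAD54B, RAD51B and FANCM did not exceed 1.77 FPKM in any library. For RAD50 and RAD54B this need not mean low expression, since 79.7% and 59.1% of their exonic bases are shared with other genes. Summed over the role, Fanconi genes had 100.1 FPKM in U251 Control and 70.0 FPKM in U251 Bru, against 72.6 and 73.8 FPKM in U87 Control and U87 Bru. The U251 Bru sum thus lay near both U87 sums. The sum of the homologous recombination genes went from 69.6 to 52.8 FPKM in U251 and from 60.6 to 59.9 FPKM in U87, and that of the end joining genes from 303 to 357 FPKM and from 262 to 267 FPKM. Most of the U251 rise in the end joining sum came from XRCC6, which went from 159 to 202 FPKM.

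**Figure D4:**
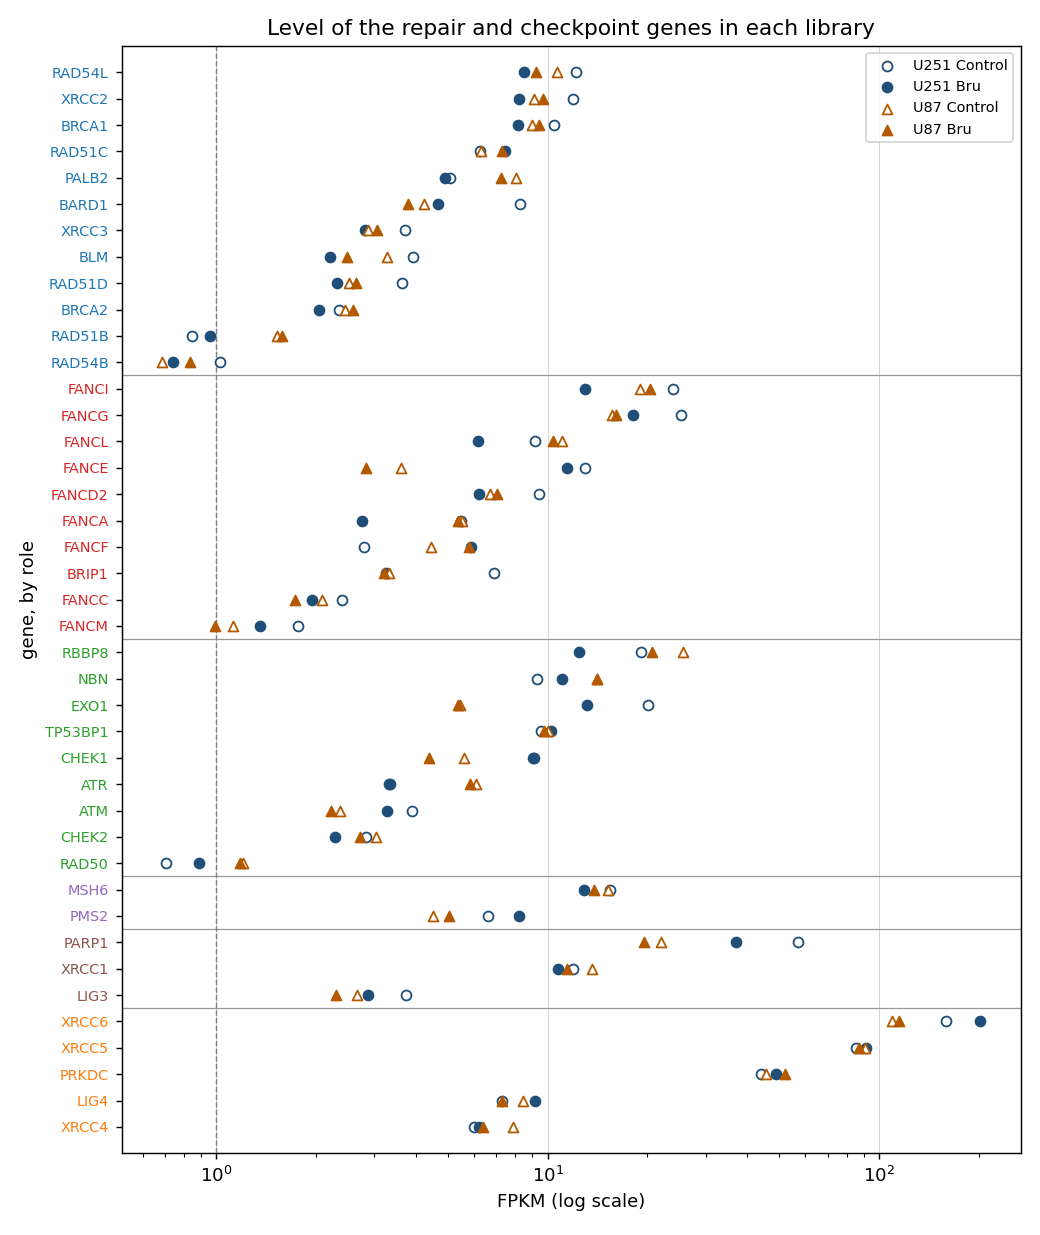
FPKM (log scale) of the 41 genes in the 4 libraries, grouped by role and ordered by mean level. Open symbols are Control and filled symbols Bru, circles are U251 and triangles U87, and the dashed line marks 1 FPKM. For BRIP1 and BARD1 the open U251 circle stands to the right of the other 3 symbols, and for FANCA the filled U251 circle stands to the left.

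The neighbours of the genes on the chromosome did not share their ratios in every case. A gene running the opposite way started within 1 kb of 15 of the 41, and for 10 of these it passed the filter. The start was taken as the outermost annotated end of each gene, and whether these cells use that start was not tested. PRKDC starts 2 bases from MCM4, a subunit of the replicative helicase, and their U251 ratios were 0.15 and -0.62. The outermost annotated start of BRCA1, which need not be its main start, lies 236 bases from that of NBR1, an autophagy receptor. The U251 ratios of BRCA1 and NBR1 were -0.36 and 0.38. FANCD2 and the pseudogene CIDECP, whose starts are 49 bases apart, were at -0.60 and 0.99. PMS2 and AIMP2, 120 bases apart, were both higher, at 0.31 and 1.17. TP53BP1 and MAP1A were at 0.10 and 1.84, with MAP1A at 0.73 FPKM in U251 Control and 2.87 FPKM in U251 Bru. XRCC3 and ZFYVE21 were both lower, at -0.39 and -0.64, as were FANCM and FKBP3, at -0.36 and -0.30. PALB2 and DCTN5 were at -0.05 and 0.36, XRCC6 and DESI1 at 0.34 and 0.17, and LIG4 and ABHD13 at 0.32 and -0.13.

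Overlap with other genes limits some of these values, since the library kit is not stated to mark strand and reads of overlapping genes cannot then be told apart. More than 10% of exonic bases or of stretches of 50 bases were shared with another gene in 14 of the 41. RAD50 shares 79.7% of its exonic bases with AC116366.3, and RAD54B shares 59.1% with FSBP, both on the same strand, and these were the 2 genes below the filter. AC116366.3 had only 5 to 13 reads per library and FSBP 8 to 29. Whether reads on these shared bases were counted for neither gene was not tested, and a kit that marks strand would not separate them. XRCC3 overlaps KLC1 on the other strand over 76.7% of its exonic bases. In the order used above KLC1 had 1751, 932, 1229 and 1135 reads and XRCC3 had 583, 390, 389 and 398, so that both were lower in U251 Bru, and the part of KLC1 in the XRCC3 ratio was not tested. FANCA shares 23.6% with ZNF276, LIG3 30.5% with RFFL, RAD54L 25.1% with LRRC41 and TP53BP1 28.7% with TUBGCP4. Of the stretches of 50 bases in PMS2, 23.0% occur elsewhere, mainly in the pseudogene PMS2CL, which had 5.13, 7.07, 3.65 and 4.24 FPKM. The summed reads of PMS2 and PMS2CL were 963, 1107, 577 and 631, so that the sum was also higher in both Bru libraries. XRCC6 shares 13.5% with its pseudogenes. Among the 27 genes without such overlap, 9 were at least 1.5-fold lower in U251 Bru (15.6% of all genes) and none was higher (11.3%), since FANCA and FANCF are left out.

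Other repair genes, taken from lists that hold none of the 41, had ratios nearer to 0 on balance. Of 105 such genes 99 passed the filter, with medians of -0.05 in U251 and -0.00 in U87. In U251, 14 were at least 1.5-fold lower and 7 higher, beside the 15.6% and 11.3% of all genes given above, and in U87 none was lower and 2 were higher. Ligases and nucleases of replication were among the lowest. LIG1, which joins Okazaki fragments, went from 16.5 to 6.92 FPKM in U251 (-1.24) and from 6.99 to 7.02 FPKM in U87 (0.00), and FEN1, which trims them, was at -1.02 and -0.26. For the 27 other recombination and Fanconi genes the U251 median was -0.04, with 15 genes below 0 (52.1% of all genes) and 12 above. The U87 median of these genes was -0.03. Of these, RMI2, a partner of BLM, was at -1.22 and -0.50, FANCB was at -0.997 and 0.22, and UBE2T, the conjugating enzyme of the Fanconi pathway, was at -0.89 and -0.33. In the checkpoint list, WEE1, which restrains entry into mitosis, was at -0.97 and -0.10, CLSPN, which carries the signal from ATR to CHEK1, at -0.80 and -0.17, and TOPBP1, which activates ATR, at -0.56 and -0.22.

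Nucleotide excision repair genes lay above 0 on balance, with medians of 0.10 in U251 and 0.16 in U87. ERCC4, a nuclease that cuts beside the lesion, went from 1.38 to 2.51 FPKM in U251 (0.82) and was at -0.09 in U87. GTF2H1 was at 0.71 and 0.22, and XPA at 0.69 and 0.12. In base excision repair, the polymerase POLB was higher with Bru in both lines, at 0.75 and 0.52. Of translesion synthesis, SHPRH was at 0.45 and 0.43, POLK at 0.62 and 0.15, and PRIMPOL at -0.56 and -0.28. The other end joining list was split in U251, with a median of 0.07, 4 genes above 0 and 3 below. In it, TDP1 and POLQ were at -0.69 and -0.49 in U251 and TDP2 at 0.48. In the other mismatch list, MSH3, PMS1 and MLH3 were at 0.42, -0.14 and -0.16 in U251. MLH3 had 0.20 FPKM in U251 Control and 3.28 FPKM in U87 Control. MGMT, which removes the alkyl group that temozolomide leaves on guanine, had 0 reads in all 4 libraries, and a count of 0 allows up to 3. The other direct reversal enzymes, ALKBH2 and ALKBH3, were at 0.55 and 0.53 in U251 and 0.08 and -0.14 in U87.

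Cell cycle genes were lower in U251 Bru as well. All 33 S phase genes were below 0 there (52.1% of all genes) and 27 were at least 1.5-fold lower (15.6% of all genes). The S phase median was -0.86 in U251 against -0.14 in U87. POLA2, CCNE2 and GINS2 were at -1.29, -1.17 and -1.14 in U251 and at -0.39, -0.38 and -0.35 in U87. Of 23 mitotic genes 15 were at least 1.5-fold lower in U251, with medians of -0.61 and -0.12. MKI67, the proliferation marker, went from 47.3 to 21.8 FPKM in U251 and from 45.1 to 41.6 FPKM in U87, TOP2A was at -0.89 and -0.29, and ANLN at -0.83 and -0.35. The summed level of the S phase list was 1107 and 627 FPKM in U251 Control and U251 Bru and 996 and 913 FPKM in U87 Control and U87 Bru. The part of this shift in the repair genes was not tested. An E2F core was found in 24 of 28 S phase promoters and in 3 of 19 mitotic ones, and the CHR element in 1 of 28 and in 13 of 19.

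Targets of p53 had opposite medians in the lines, -0.37 in U251 and 0.43 in U87, over 16 genes. CDKN1A, the cell cycle inhibitor p21, had 35.6, 12.7, 83.7 and 132 FPKM, with ratios of -1.48 (-1.61 to -1.36) and 0.66 (0.60 to 0.71). BBC3, a pro-apoptotic BCL2 relative, was at -1.14 and 0.43, and BTG2, an antiproliferative gene, at -0.57 and 0.75.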

How the data were processed

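Total RNA of 4 cultures was sequenced as paired-end reads from a NEB Next Ultra library (kit and read type per the study's methods). Each deposited file holds the FPKM that the authors computed for 1 library, beside gene lengths and coordinates. The submitters' processing notes name HISAT2 2.0.5, StringTie 1.3.3b, featureCounts 1.5.0-p3, DESeq2 1.16.1 and the build hg18, with no order given. The coordinates in the files equal those of GENCODE 29 on GRCh38 for 58724 of 58735 genes and for all 41 members, and GRCh38 is used here.

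The 41 genes were taken by symbol. They, the 6 roles and all other gene lists were chosen with earlier results of these data known. Reads were recovered from FPKM times gene length (tolerance 0.01 reads). Log2 ratios were computed on FPKM + 0.1, with a filter of a mean of at least 1 FPKM, and calls were made at 2-fold and 1.5-fold. No p-value was computed, because each condition has 1 library. Intervals at 95% (Clopper-Pearson for a ratio, conditional odds ratio for the difference between lines) cover counting error only, as the reads carry no molecular identifiers. A count of 0 was taken to allow 3 reads. The recovery and the intervals were tested on simulated data of 58735 genes, with 0 wrong reads. Python 3.11.15, numpy 2.4.6, pandas 2.3.3, scipy 1.17.1 and matplotlib 3.10.9 were used. Every member could be named, and in each other list the 3 genes past the filter with the largest mean absolute log2 ratio were named, besides divergent neighbours past the filter, direct reversal genes and cell type markers. RefSeq promoters were matched by symbol (first entry per gene of 35116 entries). Exonic overlap and shared stretches of 50 bases were taken from GENCODE 29 exons and transcripts. Alternatives were a pseudocount of 0.01 or 1, TPM, scaling by total reads, by the 75th percentile or to a median of 0, other filters, protein-coding genes only, and, added after seeing the data, leaving out genes that share over 10% of their sequence.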

Additional observations from a re-analysis of the deposited data

Results flagged for a closer look

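For 3 genes the counting intervals of the Bru ratio lay on opposite sides of 0 in the lines, and each line has 1 library per condition, so that the difference was not tested against a spread between cultures. The share of all genes with such opposite intervals was not computed. FANCI was lower in U251 Bru and slightly higher in U87 Bru, a difference of -0.98 on the log2 scale. LIG4 was higher in U251 Bru and lower in U87 Bru, a difference of 0.53. XRCC5 differed by 0.16 in the same direction as LIG4, and its U87 ratio of -0.06 came to -0.00 with scaling by the 75th percentile.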

How the results depend on the processing

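In U251 Bru against Control, the 10 genes at least 1.5-fold lower (15.6% of all genes) became 6 with a pseudocount of 1 (11.4%), 5 with scaling by total reads (12.7%), 5 with scaling by the 75th percentile (12.7%) and 6 with a filter of 5 FPKM (14.5%). The 1 gene at least 2-fold lower (BRIP1) became 0 under each of these settings. The 1 gene at least 2-fold higher (FANCF) became 0 with a pseudocount of 1, with a filter of 5 FPKM, which left 25 of the 41 genes, and without the genes that share over 10% of their sequence, an alternative chosen after seeing the data. At 1.5-fold FANCF also became 0 under the last 2 of these. Between the Control libraries, the 5 genes at least 1.5-fold higher in U87 became 1 with a pseudocount of 1, 2 with a filter of 5 FPKM and 3 without the genes that share sequence. The log2 ratio of PRKDC between the Control libraries reversed to -0.0206 with TPM. The U251 median of single-strand break repair went from -0.37 to -0.62 without the genes that share sequence. The median of the members kept its sign in each comparison, within -0.31 to -0.17 in U251, -0.06 to -0.00 in U87 and -0.27 to -0.17 between the Control libraries, and the median of all genes stayed within -0.04 to 0.05 in U251. The counting interval of a member reached 0.15 in U251 and 0.17 in U87 to either side (median, log2), and the spread between cultures is unknown. No paired analysis was possible because each condition has 1 library.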
